A study of Mus musculus with 36 samples.

Results

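Proteoglycans are proteins that carry long sulfated sugar chains. Syndecans span the cell membrane, glypicans are held to its outer face by a lipid anchor, perlecan is laid down in basement membranes, and betaglycan and CD44 carry such chains only part of the time. Heparan sulfate chains bind growth factors, chemokines and matrix proteins at the cell surface, and they are co-ligands of natural cytotoxicity receptors of NK cells, which is why their abundance on BPTF-depleted cancer cells was of interest here. The core protein sets where the chains sit, so the transcript of a core gene is a separate measure from the amount of heparan sulfate.

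The genes described are 10 proteoglycan cores out of 12394 measured genes, namely the syndecans *Sdc1*, *Sdc2* and *Sdc4*, the glypicans *Gpc1*, *Gpc3*, *Gpc4* and *Gpc6*, perlecan (*Hspg2*), betaglycan (*Tgfbr3*) and *Cd44*. They were chosen by name, all 10 were measured, and together they had 19 probe sets on the array. The brightest probe set stood for a gene with several, and no gene was left out for a low signal. BPTF is the histone-binding subunit of the NURF chromatin remodeling complex. Expression was measured on Affymetrix arrays in 36 tumors, 1 array each, and is given as log2 values.

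Tumors grew from 67NR cells, a non-metastatic mouse mammary tumor line, or from 66cl4 cells, a metastatic line of the same BALB/c origin, after injection into the fourth mammary fat pad of female mice of 6 to 8 weeks. For 67NR, 100000 cells were injected and tumors were taken at day 21. For 66cl4, 10000 cells were injected and tumors were taken at day 28, so that line, dose and time cannot be told apart. Hosts were NSG mice (NOD/SCID/Ifrg2r -/- in the labels), which lack T, B and NK cells and keep myeloid cells and stroma, or BALB/c mice. They differ in strain as well as in immune cells. Each line and host had 6 BPTF KD tumors, made with 2 retroviral hairpins against *Bptf*, and 3 Control tumors. The labels do not give the hairpin of each tumor, so the 6 BPTF KD tumors of a group were treated as independent. Because these are whole tumors, fewer cells of a type and less RNA per cell cannot be told apart.

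*Bptf*, the targeted gene, did not pass the test for BPTF KD minus Control in any line and host. On its brightest probe set, the one used here, the differences were -0.27 in 67NR NSG tumors, -0.06 in 67NR BALB/c tumors, -0.33 in 66cl4 NSG tumors and -1.09 in 66cl4 BALB/c tumors, with limma adjusted p of 0.644, 0.985, 0.584 and 0.0628. In 66cl4 BALB/c tumors all 6 BPTF KD tumors lay below all 3 Controls. *Bptf* has 3 dimmer probe sets, and of these the brightest gave -0.76, -0.27, -0.38 and -1.84 in the same order of groups, the next 0.06, 0.03, 0.30 and -0.14, and the dimmest -0.78, -0.62, -0.29 and -1.29. None of the 12 values passed when adjusted over all probe sets (the lowest adjusted p, 0.0502, was that of -1.84). The tumors labelled BPTF KD in 67NR BALB/c mice spanned 8.34 to 10.68 around Controls of 9.73 to 10.31, so on that probe set a direction there follows the label and not the *Bptf* level. Of the cell type markers, the mean of 8 epithelial genes spanned 5.07 to 6.53 in 67NR tumors and 6.29 to 8.04 in 66cl4 tumors. *Krt8*, a keratin of luminal epithelium, averaged 7.51 in 67NR and 13.12 in 66cl4 tumors and *Krt18*, its partner, 5.28 in 67NR and 8.16 in 66cl4 tumors. The other 6, among them *Krt7* (4.95 in 67NR, 4.83 in 66cl4) and *Cdh1* (5.10 in 67NR, 4.54 in 66cl4), were not called between the lines averaged over hosts and labels. T and NK cell genes, measured as the mean of 6 genes, spanned 4.65 to 5.37 in NSG tumors and 6.13 to 9.93 in BALB/c tumors. Skeletal muscle genes, the mean of 7 genes, stood above 9 in 8 of 9 66cl4 BALB/c tumors and in 1 of 9 67NR BALB/c tumors, against 5.15 to 7.62 in all NSG tumors.

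In the mouse genome (GRCm38.p6), the genes lie on 8 chromosomes. *Gpc4* (chromosome X, 52051007 to 52164923) and *Gpc3* (chromosome X, 52272426 to 52613974) are neighbors 107502 bases apart, and *Cd44* (chromosome 2, 102811141 to 102901669) and *Sdc4* (chromosome 2, 164424247 to 164443188) share a chromosome. *Sdc2* is on chromosome 15 (32920723 to 33034721), *Gpc1* on chromosome 1 (92831645 to 92860211), *Sdc1* on chromosome 12 (8771396 to 8793716), *Hspg2* on chromosome 4 (137468751 to 137570630), *Tgfbr3* on chromosome 5 (107106567 to 107289629) and *Gpc6* on chromosome 14 (116924920 to 117979529). Promoters of 6 of the 10 genes were matched in RefSeq tables. The 3 printed here belong to the genes that differed between the cell lines in both hosts on their brightest probe sets, as described further on. Each runs over the 250 bases before the start in the promoter table, which for *Cd44* lies just inside the outer end of the gene as given above, 5′ to 3′ on the gene's own strand, which is the minus strand for all 3 (*Gpc4*, chrX:52164924-52165173; *Cd44*, chr2:102901666-102901915; *Sdc4*, chr2:164443189-164443438), with the GC box letters GGGCGG, or CCGCCC on the other strand, in capitals.
Gpc4: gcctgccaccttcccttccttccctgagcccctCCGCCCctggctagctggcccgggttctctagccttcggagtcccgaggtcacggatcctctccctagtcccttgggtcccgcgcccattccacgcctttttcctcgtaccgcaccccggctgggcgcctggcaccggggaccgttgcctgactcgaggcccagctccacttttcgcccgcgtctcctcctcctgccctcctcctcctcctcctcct
Cd44: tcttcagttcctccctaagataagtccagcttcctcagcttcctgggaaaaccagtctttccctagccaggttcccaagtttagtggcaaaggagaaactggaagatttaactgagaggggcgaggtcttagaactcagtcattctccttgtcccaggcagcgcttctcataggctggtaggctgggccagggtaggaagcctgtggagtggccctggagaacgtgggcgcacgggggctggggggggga
Sdc4: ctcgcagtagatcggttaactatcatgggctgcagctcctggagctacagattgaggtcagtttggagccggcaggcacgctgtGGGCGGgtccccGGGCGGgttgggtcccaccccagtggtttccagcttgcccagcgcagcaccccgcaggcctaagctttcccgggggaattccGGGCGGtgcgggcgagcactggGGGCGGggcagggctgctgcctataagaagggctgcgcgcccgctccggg
The windows were searched on both strands for the GC box, the CCAAT box, the TATA box (letters TATAA) and the E-box (letters CACGTG). The *Sdc4* window held 4 GC boxes and 1 TATA box, the *Gpc4* window held 1 GC box, and the *Cd44* window held no match to any of the 4. Over all 32851 promoters of this length, 32.7% held a GC box, 33.8% a CCAAT box, 22.8% a TATA box and 6.02% an E-box. The GC content was 68.4% for *Gpc4*, 56.4% for *Cd44* and 68.0% for *Sdc4*, against a median of 52.4% over all promoters. These matches describe the letters in the windows and nothing about a bound factor.

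The first comparison asked how the cores differ between tumors of the 2 cell lines. *Gpc4*, *Cd44*, *Sdc2*, *Sdc1* and *Gpc1* were higher and *Sdc4* was lower in 67NR tumors than in 66cl4 tumors, when the 4 differences within host and label were averaged. *Gpc4* stood out, at 3.13-fold (log2 1.65 ± 0.16 SE), followed by *Cd44* at 1.99-fold (0.99 ± 0.15) and *Sdc2* at 1.96-fold (0.97 ± 0.11). These 6 of 10 cores passed the limma test at an adjusted p under 0.05, where 49.4% of all 12394 genes passed, 24.2% upward and 25.2% downward. The share of cores called was thus near that of genes in general. The median difference was 0.22 over the 10 cores and -0.01 over all genes.

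*Gpc4*, a glypican that modulates growth factor signaling, separated the lines almost completely. In 67NR NSG mice its signal was 8.08, 8.36, 8.47, 8.38, 8.71 and 8.18 in BPTF KD tumors and 9.27, 8.31 and 8.89 in Controls, and in 67NR BALB/c mice it was 7.85, 9.97, 7.29, 8.25, 9.18 and 8.0 in BPTF KD tumors and 9.01, 8.68 and 8.99 in Controls. In 66cl4 NSG mice it was 6.83, 6.81, 6.78, 6.85, 7.06 and 6.85 in BPTF KD tumors and 6.92, 6.75 and 7.0 in Controls, and in 66cl4 BALB/c mice it was 6.64, 6.99, 6.77, 6.95, 6.82 and 6.75 in BPTF KD tumors and 7.05, 7.79 and 7.20 in Controls. Of the 18 67NR tumors, 17 lay above every 66cl4 tumor, and the exception was a BPTF KD tumor in a BALB/c mouse at 7.29. The SD was larger in 67NR than in 66cl4 tumors in 3 of the 4 pairs of groups (0.98 against 0.13 for BPTF KD in BALB/c mice) and smaller among BALB/c Controls (0.185 against 0.391). The line difference had a 95% interval of 1.32 to 1.97 (adjusted p = 2.46e-10 by limma), and it was 1.5, 1.93, 1.60 and 1.55 in NSG BPTF KD, NSG Control, BALB/c BPTF KD and BALB/c Control tumors. Each of the 4 passed. Its neighbor *Gpc3* spanned 5.06 to 6.34 in 67NR tumors and 5.21 to 6.66 in 66cl4 tumors, and its line difference of -0.09 ± 0.14 did not pass (adjusted p = 0.644 by limma).

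*Cd44*, the hyaluronan receptor of tumor cells and leukocytes, had a signal of 11.24, 11.31, 11.02, 11.22, 12.17 and 11.10 in 67NR NSG BPTF KD tumors and 12.27, 11.74 and 12.26 in their Controls, and of 10.94, 12.60, 11.78, 12.33, 12.63 and 11.19 in 67NR BALB/c BPTF KD tumors and 12.43, 12.33 and 12.79 in their Controls. In 66cl4 NSG mice it was 10.88, 10.28, 10.62, 10.25, 11.20 and 10.35 in BPTF KD tumors and 10.33, 10.88 and 10.71 in Controls, and in 66cl4 BALB/c mice it was 10.72, 10.88, 11.48, 10.93, 10.99 and 11.65 in BPTF KD tumors and 11.22, 11.72 and 11.68 in Controls. The lines overlapped, with 11 of 18 67NR tumors above every 66cl4 tumor. The line difference was 0.75, 1.45, 0.80 and 0.98 in NSG BPTF KD, NSG Control, BALB/c BPTF KD and BALB/c Control tumors, and each passed. *Gpc4* and *Cd44* were the only cores that passed in all 4 of these pairs, in which 5, 3, 3 and 2 of the 10 cores passed, against 38.5%, 27.1%, 28.6% and 19.9% of all genes. In the order of group means, the 66cl4 BALB/c Controls at 11.54 ranked above the 67NR NSG BPTF KD tumors at 11.34, and these groups overlapped.

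**Figure D1:**
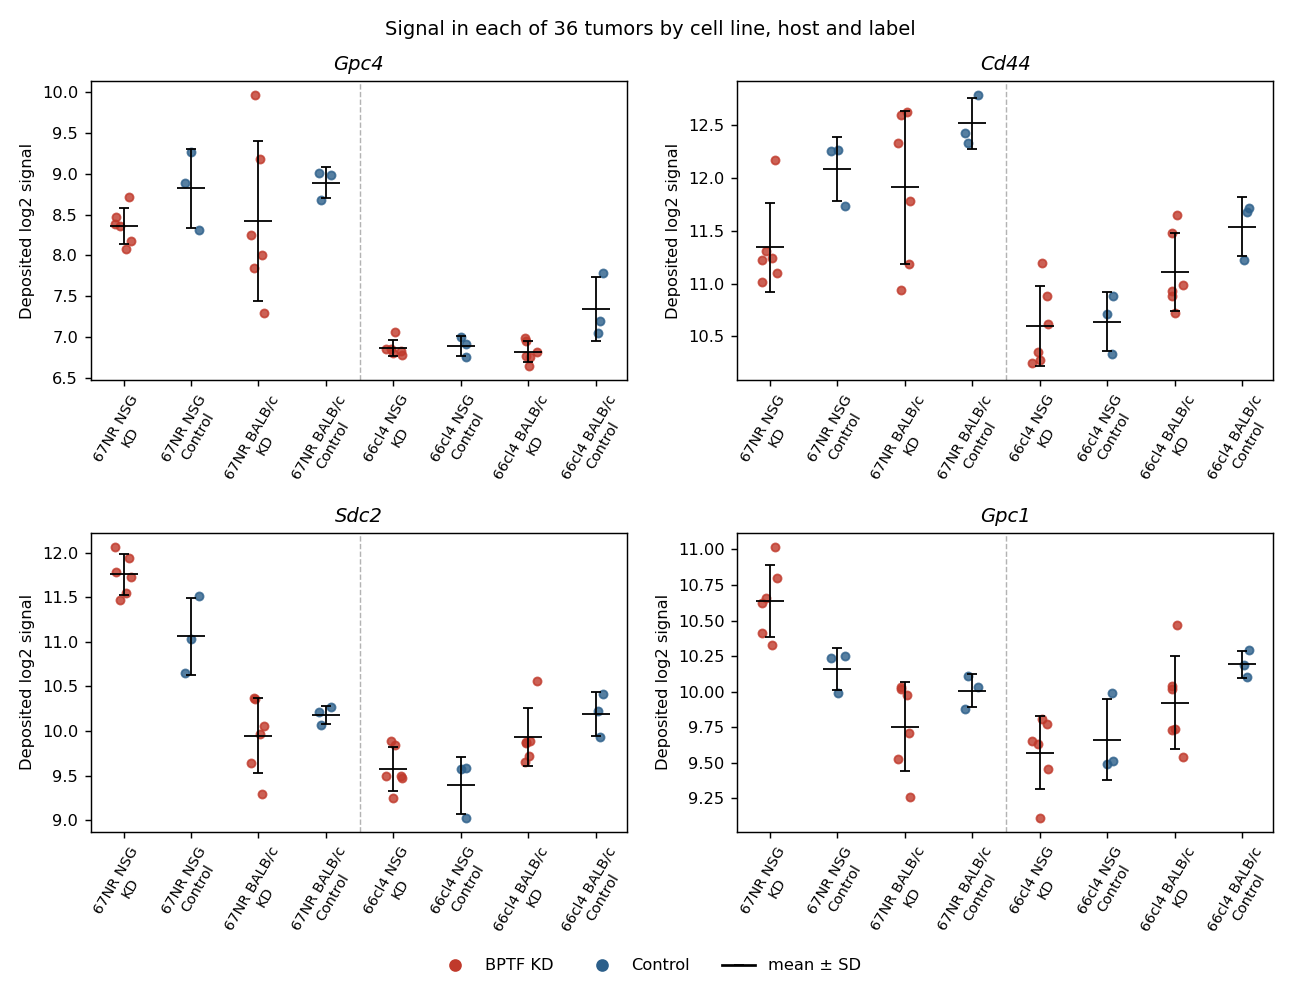
Deposited log2 signal of Gpc4, Cd44, Sdc2 and Gpc1 (y axes, 1 per gene) in each of 36 tumors, with the 8 groups of cell line, host and label along the x axis, 6 BPTF KD (red) and 3 Control (blue) tumors per line and host, and bars for mean ± SD. Gpc4 spans 7.29 to 9.97 left of the dashed line (67NR) and 6.64 to 7.79 right of it (66cl4), while Sdc2 is high in the 67NR NSG groups, with means of 11.76 and 11.06.

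*Sdc4*, a syndecan of focal adhesions, ran the other way. Its signal spanned 10.74 to 11.61 in 67NR tumors (median 11.15) and 11.33 to 11.78 in 66cl4 tumors (median 11.57), and 14 of 18 67NR tumors lay below every 66cl4 tumor (-0.40 ± 0.07 SE, adjusted p = 1.29e-05 by limma). *Sdc1*, the main syndecan of epithelial cells, spanned 9.90 to 11.25 in 67NR tumors and 9.77 to 10.80 in 66cl4 tumors, with a difference of 0.32 ± 0.12 (adjusted p = 0.0297 by limma). That small difference was no longer called with array medians subtracted (0.29, adjusted p = 0.0731), on its most variable probe set (0.22, adjusted p = 0.167), or without Control 3 of 67NR NSG, Control 3 of 66cl4 NSG, Control 1 of 67NR BALB/c or Control 2 or 3 of 66cl4 BALB/c (0.26 to 0.30, adjusted p of 0.0553 to 0.0827). *Gpc1* differed by 0.30 ± 0.09 (1.23-fold, adjusted p = 0.00622 by limma). With the 12 Control tumors alone, none of these 3 was called, at -0.30 for *Sdc4* (adjusted p = 0.0598), 0.29 for *Sdc1* (adjusted p = 0.190) and 0.16 for *Gpc1* (adjusted p = 0.257). *Hspg2* (0.11 ± 0.06), *Gpc6* (0.14 ± 0.06) and *Tgfbr3* (0.01 ± 0.06, 95% interval -0.11 to 0.13) did not pass, with adjusted p of 0.137, 0.0681 and 0.937. *Tgfbr3*, the coreceptor for TGF-beta ligands and inhibin, had a low signal that spanned only 4.39 to 5.12 over all 36 tumors.

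Averaged over hosts, other cell markers also differed between the lines. Endothelial genes were higher in 67NR tumors (7 of 8 called, list mean 7.15 to 7.93 in 67NR tumors and 6.34 to 7.39 in 66cl4 tumors), macrophage genes were lower (6 of 8), skeletal muscle genes were lower (7 of 7), and 4 of 5 proliferation genes were higher. Of 8 epithelial genes 2 were lower, and of 9 fibroblast genes 3 were higher and 1 lower. Beside these counts, 49.4% of all genes passed, 24.2% higher and 25.2% lower in 67NR tumors. The part of these markers in the line differences of the cores was not tested. Within NSG hosts no muscle gene was called between the lines (0 of 7, median -0.03), but other markers still differed. There 6 of 8 endothelial, 5 of 9 fibroblast and 3 of 5 proliferation genes were higher in 67NR tumors. Lower were 6 of 8 macrophage and 4 of 8 epithelial genes. Of all genes, 46.3% passed between the lines within NSG hosts in either direction. The differences of *Gpc4*, *Cd44* and *Sdc4* within NSG hosts were 1.72, 1.10 and -0.32, and each passed. The part of these markers was not tested there either.

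**Figure D2:**
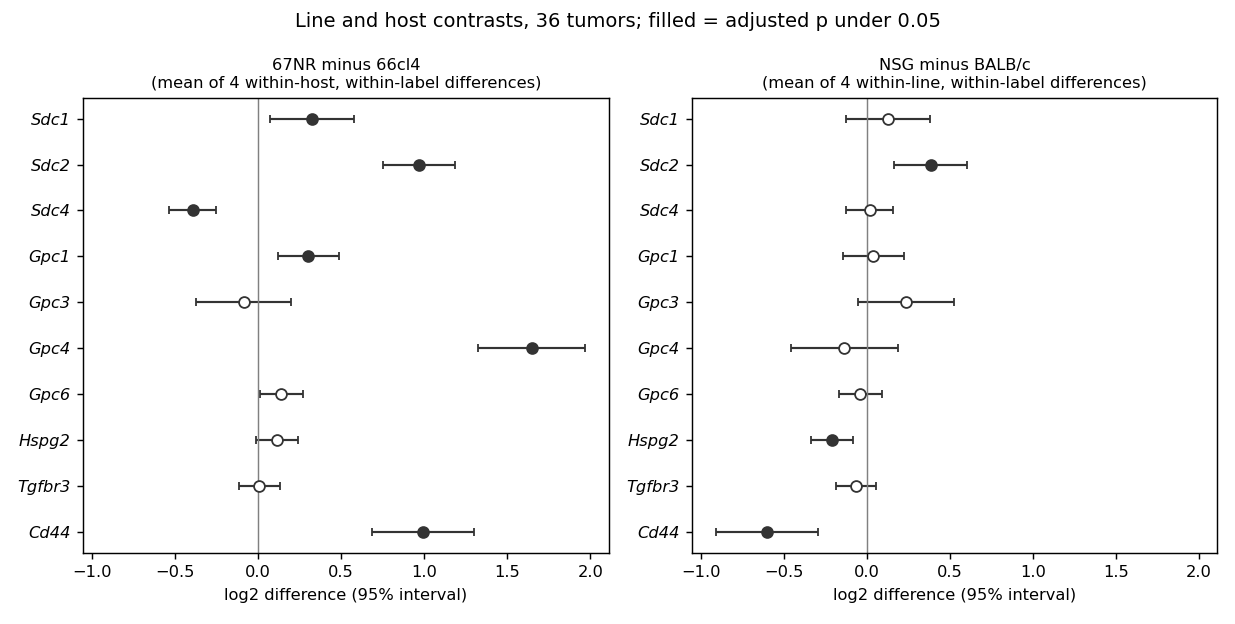
Log2 difference of each of the 10 cores between the cell lines (left, 67NR minus 66cl4) and between the hosts (right, NSG minus BALB/c) over 36 tumors, with 95% intervals and filled points for an adjusted p under 0.05. Gpc4 lies farthest right in the line panel at 1.65, and Cd44 farthest left in the host panel at -0.60.

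The second comparison asked how the cores differ between hosts without and with lymphocytes. *Cd44* and *Hspg2* were lower and *Sdc2* was higher in NSG tumors than in BALB/c tumors, averaged over lines and labels. *Cd44* was 1.52-fold lower (-0.60 ± 0.15 SE, adjusted p = 0.00316 by limma), with 10.25 to 12.27 in NSG tumors (median 11.06) and 10.72 to 12.79 in BALB/c tumors (median 11.67). *Hspg2* differed by -0.21 ± 0.06 (adjusted p = 0.0107 by limma), with 8.17 to 8.95 in NSG tumors (median 8.63) and 8.41 to 8.99 in BALB/c tumors (median 8.76). Its means in NSG and BALB/c mice lay farthest apart in 66cl4 Controls, at 8.31 and 8.82. They were 8.57 and 8.75 in 67NR Controls, 8.60 and 8.67 in 66cl4 BPTF KD tumors, and 8.72 and 8.81 in 67NR BPTF KD tumors. These 3 of 10 cores compare with 28.7% of all genes, 12.8% upward and 15.8% downward, and the medians were -0.01 over the cores and -0.02 over all genes. *Gpc4* (-0.14), *Sdc4* (0.02), *Gpc1* (0.04), *Sdc1* (0.13), *Gpc3* (0.24), *Gpc6* (-0.04) and *Tgfbr3* (-0.06) did not pass. The host and any batch of arrays cannot be told apart. Alongside, 6 of 6 T and NK cell genes (median -1.97), 7 of 7 muscle genes and 5 of 8 endothelial genes were lower in NSG tumors, and the 3′ minus 5′ difference of control transcripts, which grows as RNA degrades, was 0.41 to 0.81 in NSG tumors and 0.47 to 1.31 in BALB/c tumors. Their part in these differences was not tested, except that RNA degradation entered as a covariate left *Cd44* at -0.88, *Hspg2* at -0.31 and *Sdc2* at 0.33, all 3 called, and added *Sdc1* (0.34) and *Gpc4* (-0.39). The methods' t-test, with 18 tumors against 18 and no account of line or label, called 0 of the 3.

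The average over lines hid opposite differences. *Sdc2* was 2.54-fold higher in NSG than in BALB/c hosts when the tumor was 67NR (1.34 ± 0.15 SE, adjusted p = 5.22e-08 by limma), and it was 1.49-fold lower when the tumor was 66cl4 (-0.58 ± 0.15, adjusted p = 0.00984). *Gpc1* was 1.43-fold higher in 67NR (0.52 ± 0.13, adjusted p = 0.00279) and lower by 0.44 on the log2 scale in 66cl4 (adjusted p = 0.0197). The difference between the lines was itself tested, and it passed for *Sdc2* at 1.92 ± 0.21 (95% interval 1.49 to 2.36, adjusted p = 8.32e-07 by limma) and for *Gpc1* at 0.96 ± 0.18 (0.59 to 1.33, adjusted p = 6.58e-04). These were 2 of 10 cores, where 15.3% of all genes passed. For the other 8 cores the estimate was at most 0.30 in size, with adjusted p from 0.389 to 0.994. The 2 genes passed under each of 8 other settings and each of 36 fits that left out 1 tumor.

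*Sdc2*, a syndecan of mesenchymal cells, had a signal of 11.55, 11.47, 11.78, 12.07, 11.94 and 11.73 in 67NR NSG BPTF KD tumors and 11.03, 11.51 and 10.65 in their Controls. In 67NR BALB/c mice it was 10.37, 10.36, 10.06, 9.64, 9.97 and 9.29 in BPTF KD tumors and 10.21, 10.07 and 10.27 in Controls. All 9 67NR tumors from NSG mice therefore lay above all 9 from BALB/c mice, and the lowest of them was a Control at 10.65. In 66cl4 NSG mice the signal was 9.49, 9.25, 9.47, 9.49, 9.84 and 9.89 in BPTF KD tumors and 9.02, 9.58 and 9.57 in Controls, and in 66cl4 BALB/c mice it was 9.72, 9.65, 9.87, 9.88, 10.56 and 9.89 in BPTF KD tumors and 10.23, 10.41 and 9.93 in Controls. Here the hosts overlapped, with 7 of 9 66cl4 NSG tumors below every 66cl4 BALB/c tumor. By label, the host difference was 1.81 in 67NR BPTF KD tumors (adjusted p = 1.99e-09) and 0.88 in 67NR Controls (0.0422), and it was -0.36 in 66cl4 BPTF KD tumors (0.299) and -0.80 in 66cl4 Controls (0.0708), so that the 66cl4 difference passed only with both labels averaged. It was -0.52 (adjusted p = 0.0510) without Control 2 of 66cl4 BALB/c.

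Read by line, the same tumors gave a large difference within NSG mice and an estimate near 0 within BALB/c mice. Within NSG mice *Sdc2* was 3.81-fold higher in 67NR than in 66cl4 tumors (1.93 ± 0.15, adjusted p = 7.20e-12), with all 9 67NR tumors above all 9 66cl4 tumors, and within BALB/c mice the difference was 0.01 (95% interval -0.30 to 0.31, adjusted p = 0.980). The difference of 1.92 between hosts is the interaction tested above. *Gpc1* differed between the lines by 0.78 ± 0.13 within NSG mice (adjusted p = 8.64e-06) and by -0.18 ± 0.13 within BALB/c mice (adjusted p = 0.318). Within NSG mice 5 of 10 cores passed, against 46.3% of all genes. Within BALB/c mice 4 of 10 passed, against 33.7%. Those 4 were *Gpc4* (1.58), *Cd44* (0.89), *Sdc1* (0.47) and *Sdc4* (-0.47). The *Sdc1* value was not called in 8 fits that left out 1 BALB/c tumor (0.41 to 0.47, adjusted p of 0.0555 to 0.103).

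*Gpc1*, a glypican that binds fibroblast growth factors, had a signal of 10.33, 10.66, 10.62, 10.41, 11.02 and 10.80 in 67NR NSG BPTF KD tumors and 9.99, 10.25 and 10.24 in their Controls. In 67NR BALB/c mice it was 10.02, 10.03, 9.26, 9.53, 9.98 and 9.71 in BPTF KD tumors and 9.88, 10.11 and 10.03 in Controls. Of the 9 67NR tumors from NSG mice, 8 lay above every 67NR tumor from BALB/c mice. In 66cl4 NSG mice the signal was 9.77, 9.11, 9.46, 9.65, 9.81 and 9.63 in BPTF KD tumors and 9.99, 9.51 and 9.49 in Controls, and in 66cl4 BALB/c mice it was 9.74, 9.73, 10.02, 10.04, 9.54 and 10.47 in BPTF KD tumors and 10.19, 10.29 and 10.10 in Controls, so that 4 of 9 NSG tumors lay below every BALB/c tumor. The host difference in 67NR was 0.89 in BPTF KD tumors (adjusted p = 2.37e-05) and 0.15 in Controls (adjusted p = 0.800). Whether these differ is the interaction of label and host, which was 0.73 ± 0.26 and did not pass (adjusted p = 0.224).

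**Figure D3:**
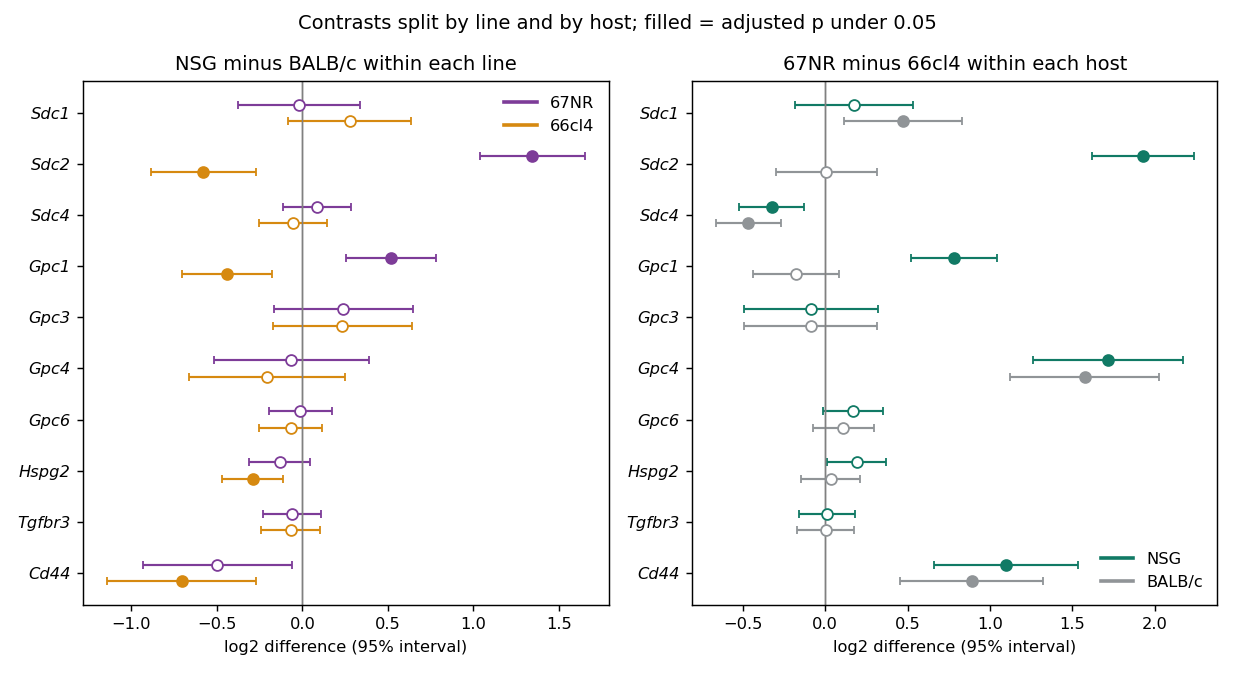
Log2 difference of each core between hosts within each line (left, NSG minus BALB/c in 67NR, purple, and 66cl4, orange) and between lines within each host (right, 67NR minus 66cl4 in NSG, green, and BALB/c, grey), with 95% intervals and filled points for an adjusted p under 0.05. Sdc2 and Gpc1 lie right of 0 in 67NR (1.34 and 0.52) and left of 0 in 66cl4 (-0.58 and -0.44), while Gpc4 is unequal between the lines in both hosts (1.72 and 1.58).

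Within 67NR, *Sdc2* and *Gpc1* were the 2 of 10 cores that passed between hosts, where 26.8% of all genes passed, and *Cd44* was at -0.50 (adjusted p = 0.0826). Within 66cl4, 4 of 10 passed and all were lower in NSG mice, where 16.2% of all genes passed in either direction and 8.10% downward. Beside *Sdc2* and *Gpc1* they were *Cd44* (-0.71 ± 0.21 SE, adjusted p = 0.0233) and *Hspg2* (-0.29 ± 0.09, adjusted p = 0.0230). Leaving out 1 Control ended each of these 4 calls. Without Control 2 of 66cl4 BALB/c the adjusted p was 0.0510 for *Sdc2*, 0.0727 for *Gpc1*, 0.0565 for *Hspg2* and 0.0856 for *Cd44*, at differences of -0.52, -0.42, -0.30 and -0.66. The call of *Gpc1* was also lost without Control 2 or 3 of 66cl4 NSG (-0.40 each, adjusted p of 0.0578 and 0.0559), that of *Hspg2* without Control 2 of 66cl4 NSG or Control 3 of 66cl4 BALB/c (-0.26 each, 0.0745 and 0.0711), and that of *Cd44* without Control 1 of 66cl4 NSG or Control 3 of 66cl4 BALB/c (-0.63 and -0.67, 0.0789 and 0.0558).

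Markers of stroma and muscle moved with this pattern. The mean of 9 fibroblast genes was 9.85 to 11.37 in 67NR NSG tumors, 9.03 to 11.33 in 67NR BALB/c tumors, 8.95 to 10.14 in 66cl4 NSG tumors and 9.91 to 10.64 in 66cl4 BALB/c tumors, and the host difference was unequal between the lines for 6 of the 9 genes (median 1.56). All 7 muscle genes were unequal as well (median 4.11), since they were lower in NSG mice in 66cl4 (7 of 7 called, median -4.34) and not called in 67NR (0 of 7, median -0.18). Of all genes, 15.3% had an unequal host difference, and 16.2% passed between hosts in 66cl4 and 26.8% in 67NR. The part of fibroblasts and of muscle tissue in the result was not tested. As a description, the deviations of *Sdc2* and *Gpc1* from their group means over the 36 tumors had r of 0.236 and -0.189 with the fibroblast list. With the muscle list r was 0.151 and -0.279. Such values describe the spread within groups and not the differences between groups.

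The third comparison is the one the tumors were made for, BPTF KD against Control within each line and host. None of the 10 cores passed in any of the 4, where 1.14% of all genes passed in 67NR NSG, 0% in 67NR BALB/c, 0% in 66cl4 NSG and 0.186% in 66cl4 BALB/c tumors (limma, 6 against 3 tumors each). At an unadjusted p under 0.05 the counts were 4 of 10 in 67NR NSG, 0 in 67NR BALB/c, 1 in 66cl4 NSG and 1 in 66cl4 BALB/c, beside 14.1%, 7.75%, 7.68% and 25.8% of all genes, and the methods' t-test with adjustment called 0 in each. The values nearest the threshold were those of *Gpc4* in 66cl4 BALB/c tumors, where all 6 BPTF KD tumors lay below all 3 Controls (-0.53 ± 0.15 SE, adjusted p = 0.0857), and of *Sdc2* in 67NR NSG tumors, where 5 of 6 lay above (0.69 ± 0.19, adjusted p = 0.118). Also in 67NR NSG tumors, *Cd44* was at -0.75 ± 0.24 (adjusted p = 0.175) with 5 of 6 BPTF KD tumors below all Controls, and *Gpc1* at 0.48 ± 0.15 (adjusted p = 0.180) with 6 of 6 above. In 66cl4 NSG tumors *Hspg2* was at 0.29 (adjusted p = 0.584) with 5 of 6 above. Beside these values, the fibroblast list mean in 67NR NSG mice was 10.35 to 11.37 in BPTF KD tumors and 9.85 to 10.41 in Controls, and the T and NK cell list mean in 66cl4 BALB/c mice was 6.70 to 7.79 in BPTF KD tumors and 6.13 to 6.63 in Controls. Their part in the result was not tested.

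Leaving out 1 tumor changed some of these calls. In 67NR NSG tumors, *Cd44* passed without BPTF KD tumor 5 (-0.91, adjusted p = 0.00960) and *Sdc2* passed without Control 2 (0.92, adjusted p = 0.0263). Without BPTF KD tumor 5, 620 of all 12394 genes passed there, against 141 with all tumors. In 66cl4 BALB/c tumors, *Gpc4* passed without Control 1 (-0.68, adjusted p = 0.0201), where 2208 of all genes passed, against 23 with all tumors. Averaged over the 4 comparisons, a contrast added after values were seen, 0 of 10 cores passed, where 1.90% of all genes passed and 2 cores had an unadjusted p under 0.05, beside 23.5% of all genes. *Cd44* was at -0.46 ± 0.15 (adjusted p = 0.0913) and *Gpc4* at -0.37 ± 0.16 (adjusted p = 0.160). *Cd44* passed without tumor 2 or tumor 5 labelled BPTF KD in 67NR BALB/c mice (-0.49 each, adjusted p of 0.0369 and 0.0436), and *Gpc4* without tumor 2 (-0.45, adjusted p = 0.0216). Without that tumor 2, 1046 of all genes passed in the average, against 236 with all tumors. *Bptf* itself was at -0.44 ± 0.15 in that average (adjusted p = 0.102), and its dimmest probe set at -0.75 ± 0.19 (adjusted p = 0.0349 over all probe sets).

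Whether the BPTF KD difference of a core was unequal between lines or hosts was tested in 4 ways, and 0 of 10 cores passed in each (limma, 36 tumors), where 0.0403% of all genes passed between lines in NSG, 0.00807% between lines in BALB/c, 0.218% between hosts in 67NR and 0% between hosts in 66cl4. Unadjusted, 1, 0, 2 and 2 cores had a p under 0.05, beside 6.77%, 14.8%, 11.3% and 4.71% of all genes. *Sdc2* had the largest of these estimates that reached an unadjusted p under 0.05, at 0.93 ± 0.30 between hosts in 67NR (adjusted p = 0.171). No other tool was run for these interactions.

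**Figure D4:**
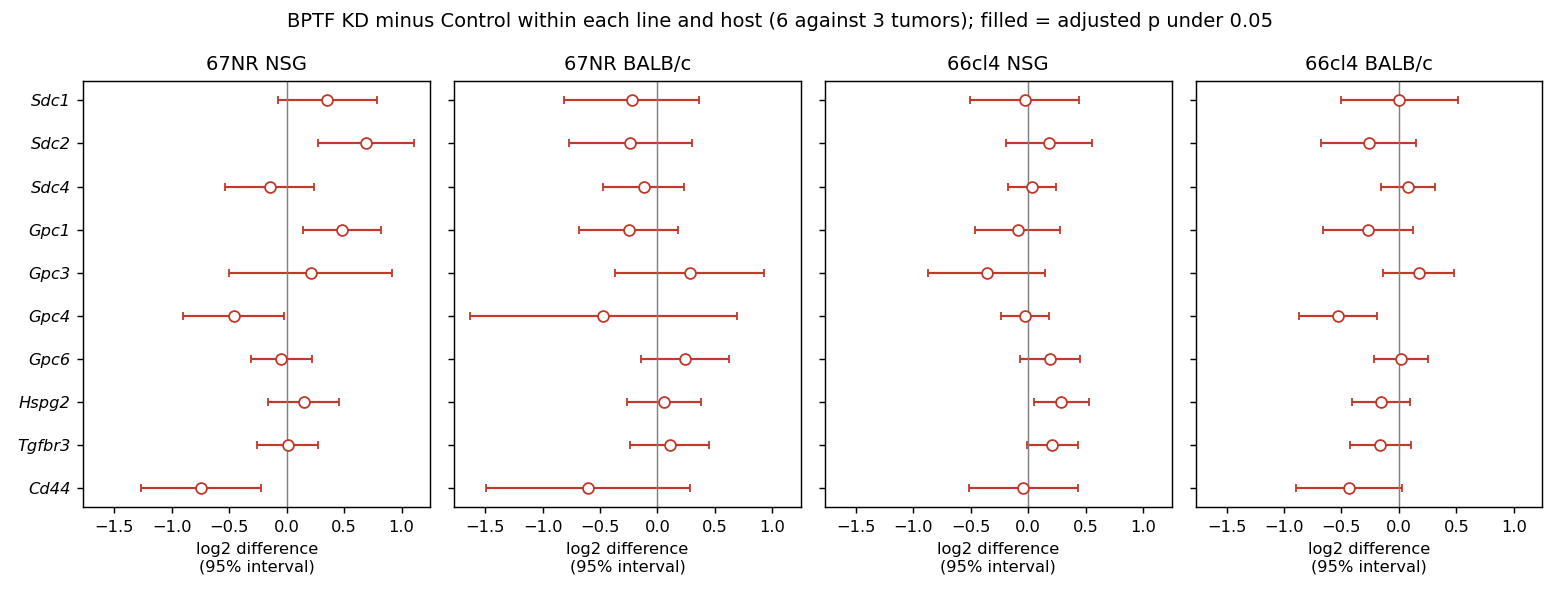
Log2 difference between BPTF KD and Control tumors for each core, with 1 panel per line and host (6 against 3 tumors), 95% intervals and filled points for an adjusted p under 0.05. No point is filled, and Cd44 lies at -0.75, -0.61, -0.04 and -0.43 from left to right.

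Of the 10 cores, 6 had more than 1 probe set, and these did not always move together. For *Sdc2* the host contrast was unequal between the lines on all 3 of its probe sets (1.92, 1.77 and 1.82, each called when adjusted over all probe sets), but the host difference within 66cl4 was not called on one of the dimmer ones (-0.16, adjusted p = 0.493). Both probe sets of *Cd44* were higher in 67NR (0.99 and 0.95), while the host difference of the dimmer one was -0.37 (adjusted p = 0.117). For *Sdc4* the dimmer probe set was lower in 67NR as well when averaged over hosts (-0.38, adjusted p = 0.0163). It showed a host difference of 0.86 in 67NR (adjusted p = 7.75e-04). The host difference was unequal between lines (1.09 ± 0.26, adjusted p = 0.00557), where the brightest had 0.14 (adjusted p = 0.504). Means of the dimmer one were 10.31 in 67NR NSG, 9.48 in 67NR BALB/c, 10.20 in 66cl4 NSG and 10.45 in 66cl4 BALB/c tumors. By these means it was lower in 67NR in BALB/c mice and not in NSG mice.

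*Gpc6* differed between lines by its dimmer probe set and not by its brightest. With the dimmer one, 67NR tumors were higher by 0.76 ± 0.06 (adjusted p = 1.28e-11 over all probe sets), at 5.49 to 6.13 in NSG and 5.18 to 5.88 in BALB/c mice, while 66cl4 tumors were at 4.81 to 5.19 and 4.86 to 5.22. With the brightest one the difference was 0.14 (adjusted p = 0.0690). Both signals were low and their correlation over the 36 tumors was 0.371. *Hspg2* gave a larger line difference by its dimmer probe set (0.53 ± 0.11, adjusted p = 1.86e-04), an s_at probe set that can bind related transcripts, and this probe set was lower in NSG mice in both lines (-0.50 in 67NR and -0.57 in 66cl4, adjusted p of 0.0188 and 0.0143). The 4 probe sets of *Sdc1* had line differences of 0.32, 0.38, 0.09 and 0.22, of which the first 2 passed. Between hosts the last of these, the most variable, was higher in NSG mice (0.39 ± 0.13, adjusted p = 0.0197 by limma), unlike the brightest (0.13, not called). The brightest, first of the 4, is an x_at probe set that can also bind related transcripts.

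**Figure D5:**
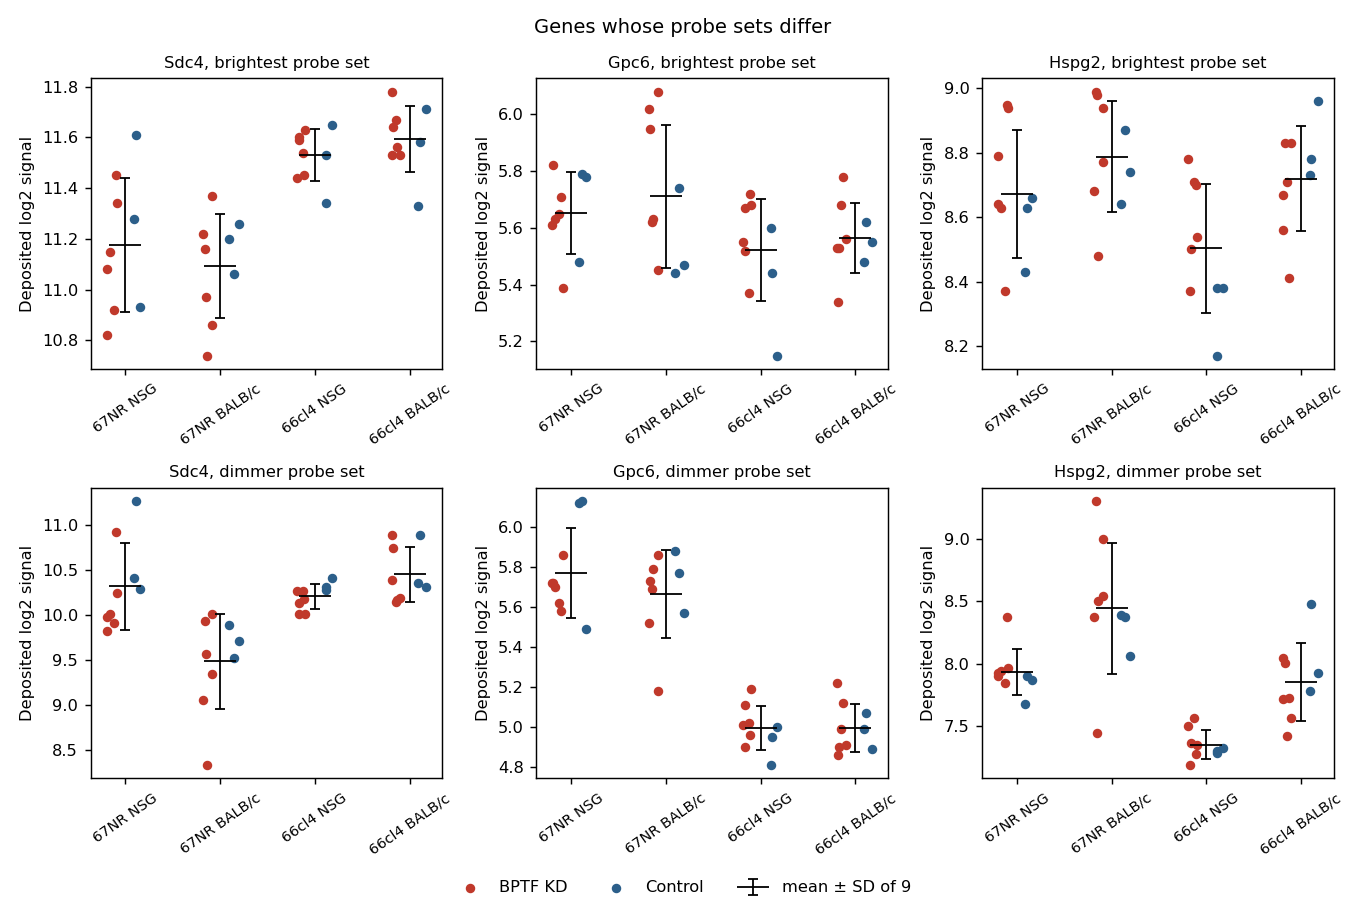
Deposited log2 signal of the brightest (top) and the dimmer (bottom) probe set of Sdc4, Gpc6 and Hspg2 in each tumor, by line and host along the x axis, with BPTF KD tumors in red, Control tumors in blue and bars for mean ± SD of 9 tumors. The dimmer Gpc6 probe set has means of 5.77 and 5.67 in 67NR and of 4.99 in both 66cl4 sets, a step that its brightest probe set does not show.

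Other proteoglycan cores, a list of 14 of which 12 were measured, varied between the lines in both directions (3 higher and 4 lower in 67NR, or 7 of 12, beside 49.4% of all genes). *Vcan*, the large matrix proteoglycan versican, was higher by 2.28 (adjusted p = 2.39e-08), and *Srgn*, serglycin of hematopoietic granules, was lower by 1.21 on the log2 scale (adjusted p = 1.80e-08). The basement membrane collagen *Col15a1* (0.51) and the pericyte marker *Cspg4* (0.41) were higher. Between hosts 2 were higher and 2 lower in NSG mice, beside 28.7% of all genes. The host difference was unequal between lines for 3 of 12, beside 15.3% of all genes, all in the direction of *Sdc2* and *Gpc1*, namely the basement membrane cores *Col18a1* (1.35, adjusted p = 9.48e-05) and *Agrn* (1.31, adjusted p = 0.00172) and *Vcan* (2.38, adjusted p = 0.00363). No core of this list passed for BPTF KD in any line and host (0 of 12, limma). The list medians were -0.01 between lines, -0.02 between hosts and 0.04 for the difference, beside -0.01, -0.02 and -0.05 over all genes.

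Partners of these cores, 28 measured of 30 listed, included 22 that differed between the lines (12 higher and 10 lower in 67NR), where 49.4% of all genes did. *Hbegf*, a heparin-binding EGF family ligand, was higher by 2.29 (adjusted p = 1.03e-08) and *Has2*, a hyaluronan synthase that makes the ligand of CD44, by 1.10 (adjusted p = 3.38e-10). *Cxcl12*, a chemokine that binds heparan sulfate, was lower (-1.20, adjusted p = 8.76e-09). Between hosts 5 were higher and 7 lower in NSG mice, beside 28.7% of all genes, and the host difference was unequal between lines for 8 of 28 (7 higher and 1 lower), beside 15.3%. Among these 8, *Tgfb3*, a ligand of betaglycan, was at 1.51 (adjusted p = 1.90e-05), *Vegfa*, the angiogenic growth factor, at 1.41 (adjusted p = 1.12e-04) and *Mmp14*, a membrane protease that cleaves syndecan and CD44 ectodomains, at 0.91 (adjusted p = 8.67e-04). With BPTF KD, 2 of 28 rose in 67NR NSG tumors, where 1.14% of all genes passed in either direction, *Mmp14* by 0.76 ± 0.14 (adjusted p = 0.0327) and *Pdgfa*, a growth factor, by 0.53 ± 0.10 (adjusted p = 0.0347), each with 6 of 6 BPTF KD tumors above all Controls. In 67NR BALB/c, 66cl4 NSG and 66cl4 BALB/c tumors 0 of 28 partners passed, beside 0%, 0% and 0.186% of all genes.

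Across tumors of the same group, *Cd44* and *Gpc4* varied together (r = 0.588 over deviations of 36 tumors from their 8 group means, a description with no test). Their deviations also followed those of *Bptf* (0.632 and 0.589) and ran against the 3′ minus 5′ difference of control transcripts, the measure of RNA degradation above (-0.564 and -0.493). Genes whose deviations were most like a core's were *Ppp2r2a* (0.958), *Pdcd6ip* (0.946) and *Uhrf1bp1l* (0.937) for *Cd44*, *Ppp2r5d* (0.878), *Ddr2* (0.876) and *Ptprk* (0.873) for *Gpc4*, and *Svep1* (0.851) for *Gpc3*. For *Sdc1* it was *Nudcd2* (0.830), for *Sdc2* *Wdr6* (0.810), for *Sdc4* *Tnfrsf9* (0.760) and for *Hspg2* *Zscan22* (0.752), while *Gpc1*, *Tgfbr3* and *Gpc6* had no gene above 0.710 (*Me1*, *Sart1* at 0.684 and *Itgb2l* at 0.578). The points share arrays, so these values also hold what an array's RNA quality and normalization add to all genes. *Gpc3* moved with the fibroblast list (0.676), and *Gpc4* against the T and NK cell list (-0.695).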

How the data were processed

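Tumors were freed of necrotic tissue, 500 ng of total RNA were labelled with biotin, and the authors deposited log2 values summarized with RMA (background correction, quantile normalization and probe set summary, version not given in the sources used here), 1 array per tumor. The 22690 probe sets had no missing value. Array medians were 7.03 to 7.21, and correlations between arrays were 0.903 to 0.996. No per-spot or detection values were used, and the number of arrays limits the precision. Of the probe sets, 20393 had 1 gene symbol, 691 several and 1606 none, and names were updated through the Entrez ID (20364 found in RefSeq, GRCm38.p6).

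Each of 12394 genes was read from the brightest of its probe sets with 1 symbol, by the mean of all tumors. Limma 3.58.1 (R 4.3.3) fitted the 8 groups of all 36 tumors for line, host and interaction contrasts, which weight each group equally, and the 9 tumors of a line and host for BPTF KD minus Control. Tests were two-sided, adjusted across the 12394 genes by the method of Benjamini and Hochberg, and called at an adjusted p under 0.05. Tables and figures used Python 3.11.15, numpy 2.4.6, pandas 2.3.3 and matplotlib 3.10.9. The procedure was tested on simulated data.

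Named were the 10 cores, *Bptf*, up to 4 genes a list with the smallest p between lines or hosts, and for each core up to 3 genes with the highest correlation of deviations. Genes named for a host difference unequal between lines or for BPTF KD were chosen after their values were seen. The cores, lists and tests were chosen with earlier results of these data known. Contrasts within 1 host or 1 line over both labels, and BPTF KD averaged over 4 comparisons, were added after values were seen. Labels do not tie tumors to litters, batches or hairpins, so p-values measure the spread between tumors of a group. Alternatives were another quantile normalization, array medians subtracted, the dimmest 25% of genes left out, another choice of probe set, all probe sets tested, array weights, an RNA integrity covariate, a replicate block, the methods' t-test, Control tumors alone, a fit of all tumors for BPTF KD, and leaving out each tumor.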

Additional observations from a re-analysis of the deposited data

Results flagged for a closer look

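Within groups of 6 BPTF KD tumors, 3 tumors stood apart from the others of their group, out of 40 groups tested for the 10 cores, where chance gives about 1 in 20. *Sdc2* was at 10.56 in tumor 5 of 66cl4 BALB/c BPTF KD, against 9.65 to 9.89 in the other 5. *Gpc4* was at 7.06 in tumor 5 of 66cl4 NSG BPTF KD, against 6.78 to 6.85. *Cd44* was at 12.17 in tumor 5 of 67NR NSG BPTF KD, against 11.02 to 11.31, within the range of the 67NR NSG Controls (11.74 to 12.27).

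The host difference was unequal between the lines for *Sdc2* (67NR minus 66cl4, 1.92, adjusted p = 8.32e-07 by limma) and for *Gpc1* (0.96, adjusted p = 6.58e-04), with NSG minus BALB/c above 0 in 67NR and below 0 in 66cl4 for both genes.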

How the results depend on the processing

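*Gpc4*, *Cd44* and *Sdc2* kept their call and direction between lines, and *Sdc2* and *Gpc1* kept theirs in the difference of the host contrast, under every alternative run. The 6 cores called between lines became 3 with the 12 Control tumors alone, without *Sdc4*, *Sdc1* and *Gpc1*, and 5 to 7 when 1 tumor was left out. Over all 12394 genes, the 6128 calls became 5093 and 5797 to 6485 in these settings. The 3 cores called between hosts became 5 with array weights, 5 with the RNA integrity covariate, 0 with the methods' t-test and 3 without any 1 tumor. Over all genes, the 3551 calls became 6372 with array weights and 3022 to 4272 without 1 tumor. *Sdc2* between hosts was at 0.04 (adjusted p = 0.883) with Controls alone. On the most variable probe set, *Sdc1* was called between hosts (0.39, adjusted p = 0.0197) and *Cd44* was not (-0.37, adjusted p = 0.114). For BPTF KD, 0 became 4 with array weights, 1 with the replicate block and 0 to 1 without 1 tumor in 67NR NSG, 1 with array weights in 66cl4 NSG, and 2 with array weights and 0 to 1 without 1 tumor in 66cl4 BALB/c. With array weights, 1927, 1389 and 3125 of the 12394 genes passed in these groups in that order, from 141, 0 and 23.

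Replicate numbers did not pair BPTF KD with Control tumors (correlation of same-numbered deviations -0.45 to 0.27), so the replicate block stands only here. Between lines or hosts these correlations ran from -0.26 to 0.70. The highest were those of tumor 5 of 67NR NSG BPTF KD with tumor 5 of 66cl4 NSG BPTF KD (0.70) and of 67NR BALB/c BPTF KD (0.67). The replicate block called *Cd44* in 67NR NSG (-0.90, adjusted p = 0.0402) and in the average (-0.55, adjusted p = 0.0395). Leaving out 1 tumor called *Gpc6* between lines without Control 3 or BPTF KD 6 of 67NR NSG, Control 1 of 66cl4 NSG, BPTF KD 4 of 67NR BALB/c or BPTF KD 4 of 66cl4 BALB/c (0.15 to 0.17, adjusted p of 0.0318 to 0.0498), and it ended the call of *Sdc4* between lines in NSG without Control 1 of 67NR NSG (-0.24, adjusted p = 0.0510). Between lines in BALB/c, *Sdc1* was not called without Control 1 or 2 or BPTF KD 1 or 6 of 67NR, or Control 2 or 3 or BPTF KD 5 or 6 of 66cl4.

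Signs turned only for differences that were not called. With array medians subtracted, BPTF KD in 66cl4 NSG became 0.0083 for *Cd44*, 0.025 for *Gpc4* and 0.022 for *Sdc1*, and *Tgfbr3* between lines became -0.027. With another quantile normalization, *Gpc6* (0.037), *Sdc4* (-0.0023) and *Tgfbr3* (0.0082) between hosts turned, as did BPTF KD of *Gpc6* (-0.029) and *Sdc1* (-0.0118) in 66cl4 BALB/c and of *Tgfbr3* (-0.0119) in 67NR NSG. The most variable probe set turned *Gpc6* between hosts (0.053) and for BPTF KD in 67NR BALB/c (-0.11). The replicate block turned BPTF KD of *Gpc6* in 66cl4 BALB/c (-0.010), of *Gpc6* (0.017) and *Tgfbr3* (-0.083) in 67NR NSG, of *Hspg2* (-0.050) and *Sdc2* (0.080) in 67NR BALB/c and of *Sdc1* in 66cl4 NSG (0.22). Array weights turned *Gpc6* (0.011) and *Sdc4* (-0.080) between hosts, *Tgfbr3* between lines (-0.018), and BPTF KD of *Gpc1* (0.019), *Gpc4* (0.057) and *Sdc2* (-0.0050) in 66cl4 NSG, *Gpc6* (0.050) and *Tgfbr3* (-0.031) in 67NR NSG, and *Sdc4* in 66cl4 BALB/c (-0.0375) and in 67NR BALB/c (0.023). The RNA integrity covariate turned *Gpc1* (-0.0092) and *Sdc4* (-0.036) between hosts and BPTF KD of *Sdc1* in 66cl4 BALB/c (-0.094) and in 66cl4 NSG (0.033). Controls alone turned *Gpc1* (-0.19) and *Sdc1* (-0.0083) between hosts and *Tgfbr3* between lines (-0.010). Leaving out 1 tumor gave -0.18 to 0.0025 for *Gpc3* and -0.014 to 0.041 for *Tgfbr3* between lines, and -0.0017 to 0.066 for *Gpc1* and -0.026 to 0.059 for *Sdc4* between hosts. For BPTF KD it gave, in 66cl4 NSG, -0.20 to 0.077 for *Cd44*, -0.18 to 0.072 for *Gpc1*, -0.097 to 0.028 for *Gpc4*, -0.27 to 0.097 for *Sdc1*, -0.0033 to 0.28 for *Sdc2* and -0.048 to 0.11 for *Sdc4*. In 66cl4 BALB/c it gave -0.022 to 0.066 for *Gpc6*, -0.12 to 0.23 for *Sdc1* and -0.027 to 0.16 for *Sdc4*. In 67NR NSG it gave -0.15 to 0.0050 for *Gpc6*, -0.32 to 0.022 for *Sdc4* and -0.038 to 0.052 for *Tgfbr3*, and in 67NR BALB/c -0.028 to 0.18 for *Tgfbr3*. The cause was not tested.

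Counts over all genes moved with the setting. The 6128 called between lines became 9862 when all probe sets were tested, and the 3551 between hosts became 1462 with Controls alone and 6372 with array weights. For BPTF KD in 67NR NSG, 141 became 10 with the methods' t-test, 1927 with array weights and 5 to 620 without 1 tumor. In 66cl4 BALB/c, 23 became 0 with the RNA integrity covariate, 3125 with array weights and 0 to 2208 without 1 tumor. With array weights, 0 became 1122 in 67NR BALB/c and 1389 in 66cl4 NSG. Low signals limit *Tgfbr3*, *Gpc3* and *Gpc6*.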
